A study of Mus musculus with 2 samples.

Results

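The miR-338 gene Mir338 and the miR-219a genes Mir219a-2 and Mir219a-1 were examined in the neural tube of newborn mice. These 3 genes were picked by symbol, with no measured value in the rule, out of 1973 microRNA (miRNA) genes in the tables. Small RNA libraries (RNA shorter than 30 bases) were made from 1 whole neural tube of each of 2 pups, called pup 2 and pup 1, at postnatal day 0. Both were B6NCrl mice born to 1 dam, with no treatment or genetic change in the labels, and their sex was not collected. The 2 libraries form 1 group, so the data describe levels in this tissue and the difference between 2 littermates, and no comparison of conditions exists.

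A miRNA gene is transcribed into a hairpin precursor, from which short mature strands are cut. The mature strand pairs with messenger RNAs mainly through its seed, bases 2 to 8, and lowers their output. miR-219 and miR-338 are known from the oligodendrocyte lineage, the glial cells that make myelin. In rodents both rise when oligodendrocyte precursors leave the cell cycle and mature, and miR-219 lowers precursor factors such as the PDGF receptor alpha, Sox6 and Hes5. Around birth the mouse spinal cord holds many precursors, and myelination is starting.

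The mature strands are shown first because they decide which reads can be assigned to which gene. Sequences are from RefSeq (GRCm38.p6, the same assembly as mm10), in which all 3 genes were found, and capitals mark the seed.
mmu-miR-338-3p: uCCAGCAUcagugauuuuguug
mmu-miR-338-5p: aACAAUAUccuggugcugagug
mmu-miR-219a-5p: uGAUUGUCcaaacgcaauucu
mmu-miR-219a-1-3p: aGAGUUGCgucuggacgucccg
The strand miR-219a-5p is listed with the same 21 bases for Mir219a-2 and for Mir219a-1, so this strand is common to both genes. The strand miR-219a-1-3p is listed for Mir219a-1 only. For Mir219a-2 the sequence table lists no strand besides miR-219a-5p, and reads from the other arm of its hairpin also count to the gene. Among 1679 mature miRNAs of the sequence table, its seed was found in 1, miR-219a-5p itself, and the seeds of miR-338-3p, miR-338-5p and miR-219a-1-3p were likewise each found in 1. The miR-338 and miR-219a strands thus form separate seed groups.

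The hairpins show how far the genes can be told apart by a read. Capitals mark both mature strands in Mir338, and in the miR-219a hairpins the longest stretch that these share.
Mir338: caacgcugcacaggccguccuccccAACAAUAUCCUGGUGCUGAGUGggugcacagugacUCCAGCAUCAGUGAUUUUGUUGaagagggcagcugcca
Mir219a-2: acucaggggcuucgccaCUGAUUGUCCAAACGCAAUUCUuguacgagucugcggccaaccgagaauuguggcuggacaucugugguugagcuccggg
Mir219a-1: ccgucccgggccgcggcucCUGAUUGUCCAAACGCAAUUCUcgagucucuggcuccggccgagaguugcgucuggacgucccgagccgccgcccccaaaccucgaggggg
The shared stretch is 22 bases long and contains the whole of miR-219a-5p. The tables keep reads that fit several places apart from the genes. A read that lies within this stretch therefore fits both hairpins and is taken as counted to neither. A read that runs past either end of it, or that comes from another part of the hairpin, fits 1 of them. This holds for reads that match exactly, and how the alignment treated mismatched bases is not known. The exact rule for reads that fit several places is not given in the sources either. Gene counts are read here as leaving such reads out. Of the 76 windows of 22 bases in the Mir219a-2 hairpin 1 also occurs in another hairpin, as does 1 of the 89 in Mir219a-1. With windows of 20 bases these were 3 of 78 in Mir219a-2 and 3 of 91 in Mir219a-1. Mir338 had no shared window of 22, 20 or 18 bases among the 1004 other hairpins searched. The counts of Mir219a-2 and Mir219a-1 are therefore taken as counts of reads placed on 1 gene only, not levels of miR-219a-5p. How many miR-219a-5p reads went uncounted was not measured.

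The longest match of the Mir338 hairpin to another one was 13 bases, in the mature strand of the miR-7 genes, where capitals mark it.
mmu-miR-338-3p: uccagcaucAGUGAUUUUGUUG
mmu-miR-7a-5p: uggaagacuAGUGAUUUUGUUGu
The match lies at the 3′ end of both strands, outside the seed.

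The 3 genes lie on different chromosomes, each on the minus strand (mm10, GENCODE M21). Mir338 (ENSMUSG00000065600.1) lies at chr11:120014765-120014862, wholly inside an intron of Aatk on the same strand, a gene for a neural protein kinase. Mir219a-2 (ENSMUSG00000065485.1) lies at chr2:29845631-29845727, outside any annotated gene on its own strand, 628 bases from the end of Urm1 and 23436 bases from Cercam. Mir219a-1 (ENSMUSG00000065555.1) lies at chr17:34024983-34025092 in the major histocompatibility region, 302 bases from Ring1 and 940 bases from H2-Ke6. It overlaps an exon of the noncoding gene Gm26940 on its own strand by 88 bases.

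Each of the 3 genes also has an annotated miRNA gene opposite to it, and these were the miRNA genes found within 10 kb. Mir3065 overlaps Mir338 by 87 bases, Mir219b overlaps Mir219a-2 by 65 bases, and Mir219c overlaps Mir219a-1 by 60 bases. The strand mmu-miR-3065-5p (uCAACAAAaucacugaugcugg, seed in capitals) is complementary to 21 bases of miR-338-3p. No rows were found under the symbols of these opposite genes, but reads opposite to the 3 genes were counted. Mir338 had 0 opposite-strand reads in pup 2 and 1 in pup 1, Mir219a-2 had 0 in both pups, and Mir219a-1 had 1 in pup 2 and 2 in pup 1. These few reads all lay within the 3 counts that a count of 0 allows.

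Depth was similar in both libraries. Own-strand counts over all miRNA genes totalled 3660693 in pup 2 and 3216453 in pup 1, so that 1 count equals 0.273 CPM (counts per 1000000 own-strand counts) in pup 2 and 0.311 CPM in pup 1. Reads that fit several places, which were not counted, made up 35.4% of the reads of pup 2 and 35.7% of those of pup 1. A gene counted as detected where each library had 10 or more counts, which 352 of the 1973 genes reached, Mir338, Mir219a-2 and Mir219a-1 among them. The labelled tissue was checked against the neuronal Mir137, which had 17125 CPM in pup 2 and 15026 CPM in pup 1. Mir137 is the most abundant of 7 genes listed for neurons, of which 5 were detected. The Mir124a genes of that list had few counts. These were 50 in pup 2 and 20 in pup 1 for Mir124a-1, 3 and 4 for Mir124a-2, and 10 and 7 for Mir124a-3. Reads that fit more than 1 of these gene copies are not in these counts, and their number was not measured. The counts are therefore no measure of the level of the mature strand.

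Mir338 and Mir219a-2 stood close together in the middle of the range of detected miRNA genes, and Mir219a-1 was far below both. Mir338 had 4109 counts in pup 2 and 3134 in pup 1, or 1122 CPM in pup 2 (exact 95% interval 1088 to 1157) and 974 CPM in pup 1 (941 to 1009). Mir219a-2 had 3786 counts in pup 2 and 2621 in pup 1, or 1034 CPM in pup 2 (1002 to 1068) and 815 CPM in pup 1 (784 to 847). Mir219a-1 had 233 counts in pup 2 and 209 in pup 1, or 63.6 CPM in pup 2 (55.7 to 72.4) and 65.0 CPM in pup 1 (56.5 to 74.4). For Mir338 and Mir219a-2 the value in pup 2 lay above the interval of pup 1, and for Mir219a-1 the intervals of the pups overlapped. These intervals cover counting error only. No molecular identifiers are stated for the reads, so copies made by amplification count as separate reads and the intervals may be too narrow.

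**Figure D1:**
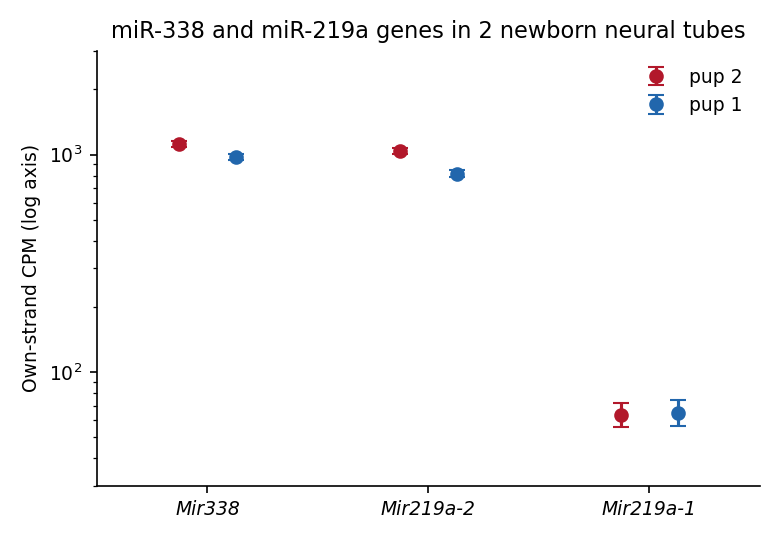
Own-strand CPM (log axis) of Mir338, Mir219a-2 and Mir219a-1 in pup 2 (red) and pup 1 (blue), with bars for exact 95% intervals of counting error. Mir338 and Mir219a-2 lie between 815 and 1122 CPM, and Mir219a-1 at 63.6 and 65.0 CPM.

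Over both pups Mir338 averaged 1048 CPM ± 105, Mir219a-2 925 CPM ± 155 and Mir219a-1 64.3 CPM ± 0.94 (SD, n = 2). By mean level they ranked 94 (Mir338), 100 (Mir219a-2) and 237 (Mir219a-1) among the miRNA genes. The ranks moved little between libraries, with Mir338 at 92 in pup 2 and 94 in pup 1, Mir219a-2 at 98 in pup 2 and 102 in pup 1, and Mir219a-1 at 237 in pup 2 and 233 in pup 1. A read of a small RNA library covers about 1 mature strand, so levels were compared without scaling to length. Ligation and amplification can favour some strands over others, and this was not measured.

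**Figure D2:**
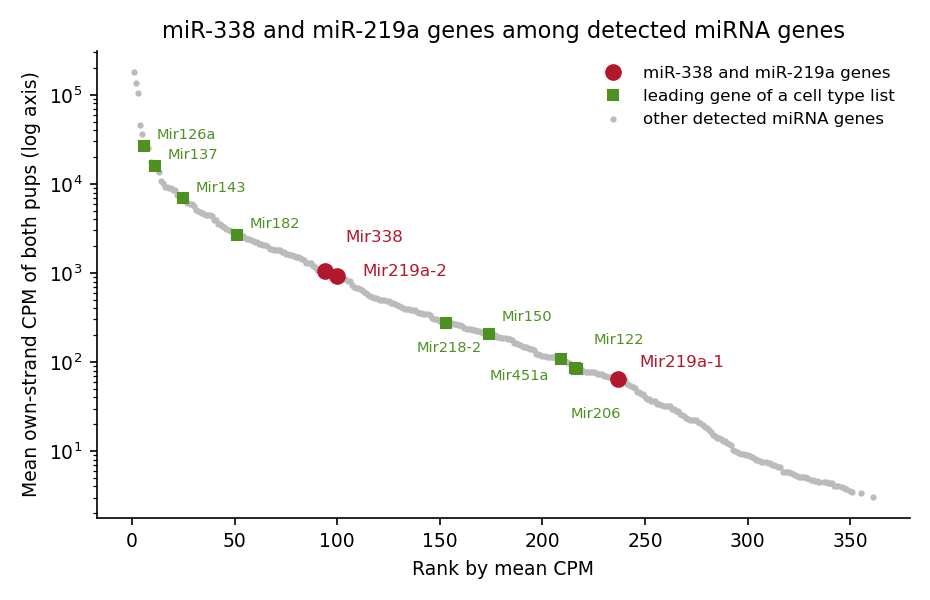
Mean own-strand CPM over both pups (log axis) against rank for the 352 detected miRNA genes. Mir338 and Mir219a-2 (red circles, ranks 94 and 100) lie between the sensory neuron gene Mir182 and the motor neuron gene Mir218-2 (green squares mark the leading gene of each cell type list), and Mir219a-1 lies at rank 237.

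The order of the levels was set against the spread between the pups. A difference of mean log2(CPM + 1) counted as beyond the spread where it exceeded the 95% limit of its standard error, from SDs pooled over genes of like abundance. Mir338 lay 0.19 above Mir219a-2 on the log2 scale (SE 0.21, 1.14-fold), within the limit of 0.41, so by this measure these neighbours did not differ beyond the spread. The limit takes no account of both genes being read in the same libraries. Within each library Mir338 lay above Mir219a-2, by 0.12 in pup 2 and 0.26 in pup 1, and 2 libraries allow no test of that difference over pups. Mir338 lay 4.003 above Mir219a-1 (SE 0.22, 16.0-fold) and Mir219a-2 lay 3.81 above Mir219a-1 (SE 0.22, 14.1-fold), both beyond the limit of 0.44. Of all 61776 pairs of detected genes, 92.0% differed by this rule, so a difference beyond it is common and the pair Mir338 and Mir219a-2 is among the minority within it.

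Together the 3 genes held 0.222% of the own-strand counts in pup 2 (8128 counts, exact 95% interval 0.217 to 0.227%) and 0.185% in pup 1 (5964 counts, 0.181 to 0.190%). Mir338 made up 50.6% of these counts in pup 2 and 52.5% in pup 1, and Mir219a-2 46.6% in pup 2 and 43.9% in pup 1. Mir219a-1 made up 2.87% in pup 2 and 3.50% in pup 1. Reads assigned to the pair of miR-219a genes summed to 1098 CPM in pup 2 and 880 CPM in pup 1, close to the level of Mir338 alone, before any shared miR-219a-5p reads, which are not in this sum.

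Differences between the pups were tested by an exact two-sided binomial test of the counts given the library totals, with Benjamini-Hochberg adjustment over all 413 genes with at least 10 counts summed. This test compares 2 libraries and holds counting error only. Mir338 was 1.15-fold higher in pup 2 than in pup 1 (log2 ratio 0.20, adjusted p = 1.2e-08 by the exact test). Mir219a-2 was 1.27-fold higher in pup 2 (log2 ratio 0.34, adjusted p = 3.6e-20 by the exact test). Mir219a-1 did not pass the test (log2 ratio -0.03, adjusted p = 0.92 by the exact test).

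The 2 of 3 genes called stand against 40.9% of all tested genes called by the same rule. Of the 169 genes called, 106 were higher and 63 lower in pup 2; with TMM scaling 77 were higher and 89 lower, and with DESeq2 scaling 92 were higher and 79 lower. The median log2 ratio was 0.20 over the 3 genes and 0.04 over all tested genes. Ratios of this size were usual at this level. Mir338 and Mir219a-2 fell in the same abundance class of 88 genes, with mean levels between 201 and 1181 CPM, and 35 of these, Mir338 included, had a log2 ratio at least as far from 0 as Mir338. For Mir219a-2 the number was 19 of the 88, itself included. In the class of Mir219a-1, 83 of 88 genes had a ratio at least as far from 0 as that gene.

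**Figure D3:**
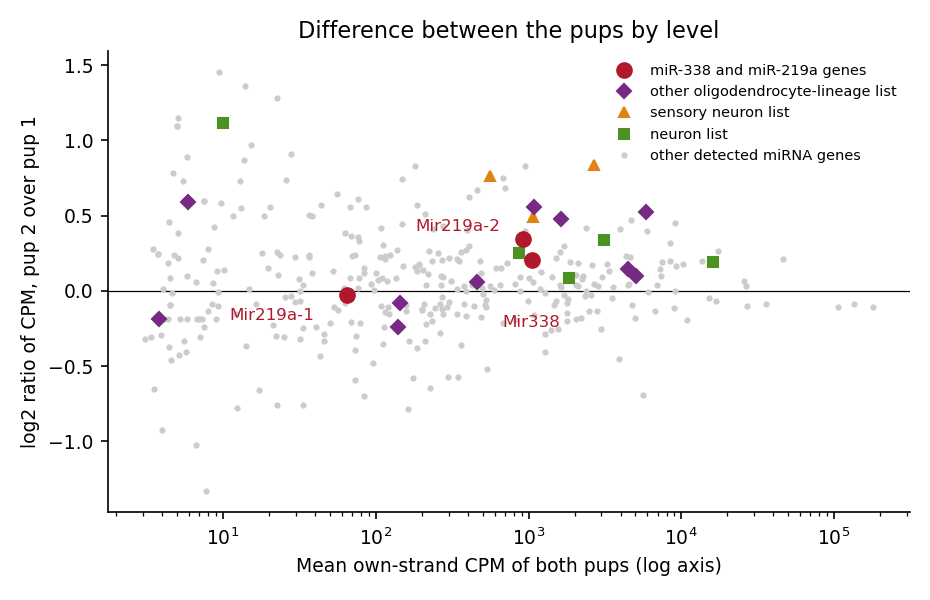
Log2 ratio of CPM, pup 2 over pup 1, against mean CPM (log axis) for the 352 detected genes. Mir338 (0.20) and Mir219a-2 (0.34) lie above 0 near the abundant genes of the neuron list (squares), below Mir182 of the sensory neuron list (triangles, 0.83), and Mir219a-1 (-0.03) lies near 0.

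Ratios between genes within a library do not depend on how the libraries are scaled, and 3 pairs were compared by Fisher's exact test (two-sided). There were 1.09 counts of Mir338 per count of Mir219a-2 in pup 2 and 1.20 in pup 1 (log2 ratio of the ratios -0.14, p = 0.0055 and 0.014 adjusted over the 3 pairs, exact). Mir219a-2 had 16.2 counts per count of Mir219a-1 in pup 2 and 12.5 in pup 1 (log2 0.37, p = 0.0094 and 0.014 adjusted, exact). Mir338 had 17.6 counts per count of Mir219a-1 in pup 2 and 14.995 in pup 1 (log2 0.23, p = 0.10 and 0.10 adjusted, exact). The miR-219a genes thus stood in different proportion in the pups by more than counting error. Set against the 1047 pairs of one of the 3 genes with another detected gene, of which 46.0% had p under 0.05, this is a usual result for these libraries.

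Genes of other cell types moved with Mir338 and Mir219a-2 between the pups, and their part in those differences was not tested. Of the 7 genes listed for neurons, 5 were called higher in pup 2 and none lower, with a median log2 ratio of 0.28 over the 6 tested. Of all tested genes, 25.7% were called higher and 15.3% lower in pup 2. Calls of the cell type lists are on own-strand totals, and were not repeated with TMM or DESeq2 scaling. Scaling shifts all log2 ratios alike, and that of Mir338 was 0.20 on totals, 0.13 with TMM and 0.16 with DESeq2. Calls on small ratios, such as Mir153 of neurons (log2 ratio 0.08) and Mir143 of smooth muscle (0.04), therefore depend on the choice of scaling. The summed level of the neuron list was 23470 CPM in pup 2, against 20372 CPM in pup 1, and none had 0 counts. The 3 genes of sensory neurons, Mir182, Mir96 and Mir183, were known to be higher in pup 2 when the list was chosen, so their values are a description only. They had a median log2 ratio of 0.76 and a summed level of 5392 CPM in pup 2 and 3233 CPM in pup 1. Endothelial Mir126a was lower in pup 2 (26007 CPM in pup 2 and 27838 CPM in pup 1, log2 ratio -0.10). In the remaining lists 3 of 4 mesenchyme and smooth muscle genes (Mir143, Mir140 and Mir214), 1 of 3 measured immune genes (Mir223), 1 of 2 genes of red blood cell precursors (Mir451a) and 1 of 3 measured skeletal muscle genes (Mir206) were called higher and none lower. Neither of the 2 motor neuron genes was called, and Mir122 of the liver was called lower. Mir1a-1 of muscle was the marker at 0 counts in both pups. In tissue of mixed cells, fewer cells of a type and less RNA per cell cannot be told apart.

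Counted per 1000 reads of Mir137, a measure chosen after the values were seen, Mir338 stood at 65.5 in pup 2 and 64.8 in pup 1. On that measure the difference of Mir338 between the pups was 1.01-fold and no longer passed (log2 0.016, p = 0.67 by Fisher's exact test). Mir219a-2 stood at 60.4 per 1000 reads of Mir137 in pup 2 and 54.2 in pup 1, a 1.11-fold difference (p = 3.7e-05, exact). Mir219a-1 stood at 3.72 in pup 2 and 4.32 in pup 1 (p = 0.11, exact). These p-values are not adjusted and hold counting error only.

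Set beside the leading gene of each cell type list, Mir338 and Mir219a-2 took a middle place. Mir137 of neurons (16076 CPM ± 1484, SD, n = 2) lay 15.3-fold above Mir338 and 17.5-fold above Mir219a-2. Mir126a of endothelium lay 25.7-fold above Mir338, Mir143 of smooth muscle 6.67-fold, and Mir182 of sensory neurons 2.47-fold. Mir338 in turn lay 3.78-fold above Mir218-2 of motor neurons and 5.04-fold above Mir150 of immune cells. It also lay 9.71-fold above Mir451a of red blood cell precursors, 12.3-fold above Mir206 of skeletal muscle and 12.6-fold above Mir122 of the liver. Each of these differences of Mir338, and each of the same comparisons for Mir219a-2, exceeded the spread between the pups. Mir219a-1 lay below Mir451a (1.65-fold), and did not differ beyond the spread from Mir206 or Mir122, genes of tissues outside the nervous system. The counts of every gene compared here hold uniquely placed reads only. Mir218-2 is 1 of 2 miR-218 genes in its list, and how many of its reads went uncounted was not measured. Levels of different miRNAs per cell are not known from these data, so these folds give no proportions of cells.

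Other miRNAs reported in the rodent oligodendrocyte lineage were measured in the same libraries. Of 12 genes listed, 11 were measured and 10 were detected. In pup 2, 5 of the 11 were called higher and 1 lower, where 25.7% of all tested genes were called higher and 15.3% lower. These calls are on own-strand totals, and the list was not called again with TMM or DESeq2 scaling. The smallest ratio called higher, that of Mir17 (log2 ratio 0.10), depends on the choice of scaling too. The median log2 ratio was 0.15 over the list and 0.04 over all tested genes. Called higher were Mir23a, whose miRNA promotes oligodendrocyte maturation by lowering lamin B1, Mir17 of the cluster that drives precursor proliferation, Mir125a, and both miR-138 genes. Called lower was Mir27a.

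The miR-138 genes, whose miRNA is induced together with miR-219 and miR-338 in maturing oligodendrocytes and is also made by neurons, stood nearest in level. Mir138-1 was at 1901 CPM in pup 2 and 1368 CPM in pup 1. Mir138-2 was at 1292 CPM in pup 2, against 877 CPM in pup 1. They were 1.39-fold and 1.47-fold higher in pup 2. Like the miR-219a genes, they make a common mature strand, so that their counts hold uniquely placed reads only. Mir23a was at 6930 CPM in pup 2, against 4811 CPM in pup 1, and its mean lay 5.52-fold above Mir338. Mir17 was at 5239 CPM in pup 2, against 4899 CPM in pup 1. Mir125a was at 4683 CPM in pup 2, against 4225 CPM in pup 1.

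The remaining genes of that list stood below Mir338 and Mir219a-2. Mir9-3, which makes a miRNA of neural precursors, was at 468 CPM in pup 2 and 449.9 CPM in pup 1. Mir32 was at 141 CPM in pup 2, against 149 CPM in pup 1. Mir27a was at 128 CPM in pup 2, against 151 CPM in pup 1. Few reads were found for Mir19b-1 (26 counts in pup 2, 15 in pup 1), Mir184 (13 counts in each pup) and Mir9-2 (7 counts in pup 2, 3 in pup 1). Mir19b-1, Mir9-2 and Mir9-3 belong to miRNAs with several gene copies, so their counts hold uniquely placed reads only. These counts are no measure of the level of the mature strands. No row was found under the symbol Mir9-1.

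**Figure D4:**
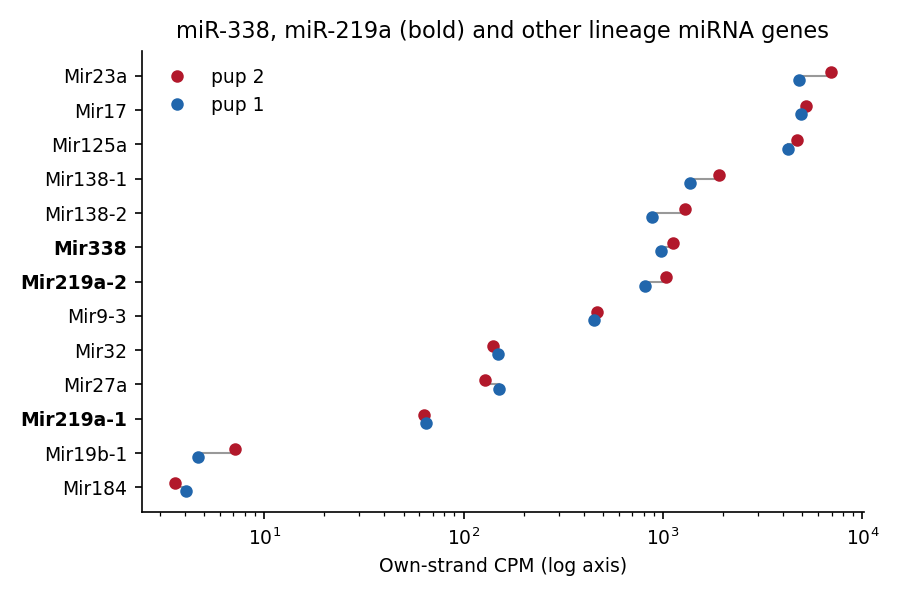
Own-strand CPM (log axis) in pup 2 (red) and pup 1 (blue) for the 3 genes (bold) and the 10 detected genes of the oligodendrocyte-lineage list, ordered by mean level. Mir338 and Mir219a-2 lie just below Mir138-2, and Mir219a-1 lies between Mir27a and Mir19b-1.

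The genes nearest in level were sought by the distance of log2(CPM + 1) over the 2 libraries. For Mir338 these were Mir125b-1 (distance 0.11), Mir3071 (0.12), Mir423, Mir183 and Mir467d. For Mir219a-2 they were Mir425 (0.07), Mir128-2 (0.14), Mir423, Mir34c and Mir532. For Mir219a-1 they were Mir673 (0.03), Mir1306 (0.06), Mir301b, Mir192 and Mir7689. With 2 libraries such a likeness describes level and the difference between the pups, and nothing else. Mir423 was near both Mir338 and Mir219a-2, at 1039 CPM in pup 2 and 897 CPM in pup 1.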

How the data were processed

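The deposited tables hold raw read counts of miRNA genes, 1 table a library, for the gene's own strand, the opposite strand and their sum. Genome (mm10) and annotation (GENCODE M4) are named in the deposited text. Aligner, counter and the rule for multimapping reads: not given in the sources used here. Classes that name no gene (unmapped, multimapping, without feature, ambiguous) stayed out of totals and tests. Counts are per hairpin gene, which merges its mature strands.

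Own-strand counts were then scaled to their total (CPM). Symbols came from GENCODE M21 by Ensembl identifier (1894 of 1973 matched). Log2 ratios between pups had 0.5 added to each count. SDs for level differences were pooled within 4 classes of abundance of the detected genes. Tests were checked on simulated data. For the exact binomial test these data held counting error only, with the totals of the unchanged genes given. The check therefore does not cover scaling or differences between animals. The 2 libraries come from littermates, and p-values between them hold counting error only. The 3 genes, the lists and the tests were chosen with earlier results of these data known. Named are the 3 genes, all genes of the lineage list, the leading gene of each cell type list and the 5 genes nearest in level to each of the 3. Mir183 and Mir96, the Mir124a genes, further genes of the cell type lists that were called, and the comparisons with miR-7 and per Mir137 count were added with values in view. Alternatives were scaling, strand, count minimum, pseudocount, leaving out Mir10b and leaving out each pup. Software was R 4.3.3, edgeR 4.0.16 (TMM), DESeq2 1.42.0 (size factors), Python 3.11.15 with scipy 1.17.1, numpy 2.4.6, pandas 2.3.3 and, for plots, matplotlib 3.10.9.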

Additional observations from a re-analysis of the deposited data

How the results depend on the processing

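Of the values under alternatives, 75 kept direction and call, or moved by less than the spread, 6 moved and 1 lost its call. No ratio or level difference of the 3 genes changed sign. The balance of all called genes did turn with TMM scaling, with 77 higher and 89 lower in pup 2, against 106 higher and 63 lower on totals. Leaving out Mir10b, the most abundant gene, raised mean levels to 1279 CPM (Mir338), 1127 CPM (Mir219a-2) and 78.5 CPM (Mir219a-1) and the joint share to 0.248%, by construction of the smaller total. Mir338 and Mir219a-2 passed the exact binomial test in 6 of 6 alternative settings of scaling, strand, count minimum and total without Mir10b, with log2 ratios between 0.13 and 0.20 for Mir338 and between 0.27 and 0.34 for Mir219a-2, and Mir219a-1 in 0 of 6 (-0.10 to -0.03). Per Mir137 count, the log2 ratio of Mir338 was 0.016 and was no longer called; the cause was not tested. Requiring a fold of at least 1.5 left 32 of the 169 called genes, and requiring only 1 count gave 553 detected genes, both by construction. With 1 pup left out, mean levels ranged from 974 to 1122 CPM (Mir338), 815 to 1034 CPM (Mir219a-2) and 63.6 to 65.0 CPM (Mir219a-1), and the log2 difference of Mir338 and Mir219a-2 was 0.12 to 0.26. Leaving out 1 of 2 pups cannot move a mean by more than its SD, so this says nothing of stability. No paired analysis was possible because the design has 1 group, with no second group to pair with; values within each library are given for pairs of genes. Depth limits Mir219a-1, whose 209 to 233 counts leave a wide interval.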
